A study of Mus musculus with 2 samples.

Results

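The genes described here encode chemokine and homing receptors: Ccr6, Cxcr5, Ccr7, Ccr9, Cxcr4, Cxcr6, Ackr3, Ccr1 and Gpr183. They are 9 of 21887 protein-coding genes, and they were listed by name, with earlier results of these data known. Their signal was read from islands, stretches of clustered sequencing reads, that overlapped by at least 1 bp the gene body or the 10 kb on either side of it. This gave 29 of the 19531 islands in the deposited table. The reads came from ChIC-seq (chromatin immunocleavage), which tethers micrococcal nuclease to a protein on chromatin through an antibody and sequences the released DNA. The antibody recognised TCF-1, a DNA-binding HMG-box factor that is the product of Tcf7. The cells were mouse lymphoid tissue inducer (LTi) cells of the C57BL/6 strain, 500 per library, sorted as live lineage-negative cells that carried CD127 and CCR6 but not KLRG1, NK1.1 or NKp46. For both libraries the cells were fixed in 1% formaldehyde for 10 min, and digestion ran for 3 min at 37 C. The library of the Tcf7+/+ genotype was made from Peyer's patches. The library of the Tcf7fl/fl-VavCre genotype, in which Cre driven by Vav sequences deletes the floxed Tcf7 alleles in blood-forming cells, came from small intestinal lamina propria. Genotype and tissue therefore cannot be told apart, and each group had 1 library.

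Chemokine receptors are G-protein-coupled receptors that steer cells along gradients of chemokines, and most act through inhibitory G proteins. Atypical receptors such as ACKR3 bind chemokines without that coupling and remove them from the surroundings. In LTi cells such receptors guide the gathering of cells in lymph node and Peyer's patch anlagen and in the cryptopatches of the gut. GPR183 is not a chemokine receptor: it senses oxysterols, which also position lymphoid cells.

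The table gives the reads of a peak and a control library for each island, and its header does not say which genotype either one is. No direction between genotypes is drawn from any value here. The islands held 483771 peak-library and 189291 control-library reads in all, with a median of 16 and 4 reads per island. How many reads the libraries held outside islands is unknown. A fold is the ratio of peak-library reads to control-library reads, the latter multiplied by the scaling factor of 2.00 that the caller used, with an exact 95% interval that covers counting error only. No fold has a replicate check, and islands were called for their peak-library reads, so a fold above 1 is in part a product of the calling. The Tcf7 locus held 9 islands with 143 against 31 reads, which do not check the genotype, since exons were not used here. Of genes for the sort, islands lay at 5 of 5 positive and 2 of 3 negative ones, the exception being Ncr1. Of the markers of other cells, they lay at 5 of 5 B cell, 4 of 5 T cell, 1 of 4 myeloid and 2 of 4 epithelial genes, with none at Cd8a, Lyz2, Csf1r, Itgam, Epcam or Vil1. Over all protein-coding genes 54.7% had an island. Islands mark chromatin and not RNA, so they do not identify the cells, and the part of other cell types in the values below was not tested.

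These 9 receptor genes carried islands often, but the reads in them were split between the libraries much as elsewhere in the genome. An island was found at 8 of the 9 genes (88.9%), against 54.7% of protein-coding genes, and Ccr9 was the exception. An island with an FDR no higher than 0.05 in the authors' deposited table lay at 7 of the 9 genes, against 40.3% of protein-coding genes. Summed over the 29 islands, 704 against 210 reads gave a fold of 1.68 (1.44 to 1.97). For comparison, this fold was 1.62 (1.61 to 1.63) over the 19513 nuclear islands below 200 peak-library reads. By the authors' deposited table, 19 of the 29 islands (65.5%) passed an FDR of 0.05, near the 62.5% of all islands, and 4 had a fold below 1 (13.8%), against 10.2% of all islands.

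**Figure D1:**
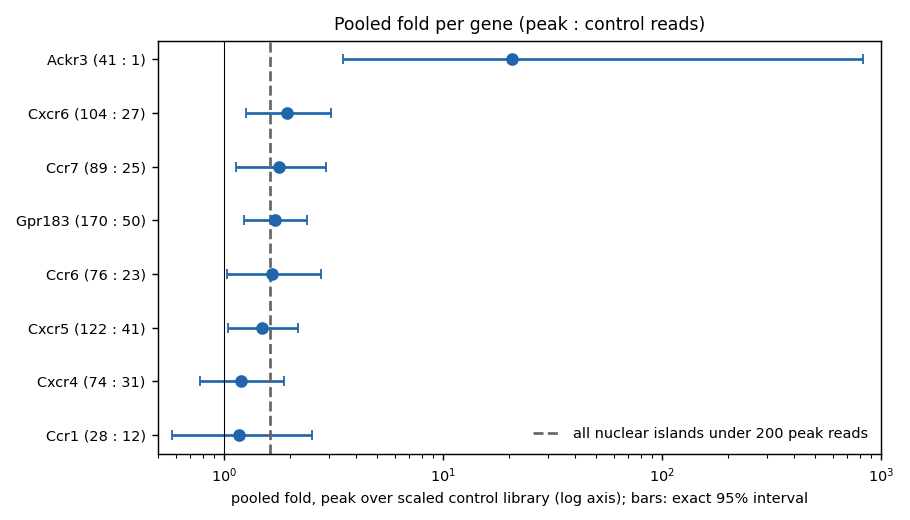
Pooled fold of the islands at each receptor gene on a log axis, with exact 95% intervals and the peak and control reads in brackets; the dashed line is the fold of 1.62 of all nuclear islands below 200 peak-library reads. The interval of Ackr3 lies to the right of the dashed line, and those of the other 7 genes cross it.

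In the order of the pooled folds, Ackr3 stood first at 20.5 (3.48 to 831). Cxcr6 followed at 1.93 (1.25 to 3.07), Ccr7 at 1.78 (1.13 to 2.90), Gpr183 at 1.70 (1.24 to 2.38), Ccr6 at 1.65 (1.03 to 2.77) and Cxcr5 at 1.49 (1.04 to 2.18). Cxcr4 at 1.20 (0.776 to 1.88) and Ccr1 at 1.17 (0.575 to 2.52) stood last, with intervals that include 1. The intervals of the 7 genes after Ackr3 overlapped one another, so their order is not resolved by these reads. An interval above 1 was seen for 6 genes, against 26.1% of the 11973 genes with an island, a share that also depends on how many reads a gene has. Each gene's reads were also set against the genome-wide share of peak-library reads, 76.4% in nuclear islands below 200 such reads. In that exact two-sided binomial test, adjusted by Benjamini-Hochberg over the 11973 genes, none of the 8 genes passed 0.05, where 0.434% of all genes did. Ackr3 was the 1 gene with an unadjusted p below 0.05 (p = 0.000351, adjusted p = 0.0627, exact binomial), against 9.5% of all genes. The test compares reads of these 2 libraries, not genotypes.

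Ackr3 and Cxcr4, both on chromosome 1, encode receptors for the chemokine CXCL12: CXCR4 signals cell movement, and ACKR3 takes the ligand up. Ackr3 (90203980 to 90215724, mm10) had 1 island, at 90202201 to 90205400, which spans its start site. It held 41 peak-library reads and 1 control-library read, a fold of 20.5 (3.48 to 831). The island over the start of Cxcr4 (128588199 to 128592299), at 128590201 to 128593600, held 52 against 28 reads, or 0.930-fold (0.577 to 1.53). The intervals of these folds did not overlap. The intervals of peak-library reads overlapped, at 12.8 per kb (9.19 to 17.4) over Ackr3 and 15.3 per kb (11.4 to 20.1) over Cxcr4, with exact Poisson 95% intervals. Those of control-library reads did not, at 0.313 per kb (0.00791 to 1.74) over Ackr3 and 8.24 per kb (5.47 to 11.9) over Cxcr4. All islands had medians of 11.8 peak-library and 3.18 control-library reads per kb. The Ackr3 island was therefore near the middle of all islands in the peak library (59.7th percentile) and set apart by its few control-library reads, whereas the Cxcr4 island lay at the 93.1th percentile for control-library reads. The 250 bases before each start site, from RefSeq on GRCm38.p6 (the mm10 build), are shown because an island covers both and the control-library reads differ most between them. Capitals mark the core letters CTTTG of TCF and LEF sites, on either strand.
Ackr3, chr1:90203730-90203979, plus strand: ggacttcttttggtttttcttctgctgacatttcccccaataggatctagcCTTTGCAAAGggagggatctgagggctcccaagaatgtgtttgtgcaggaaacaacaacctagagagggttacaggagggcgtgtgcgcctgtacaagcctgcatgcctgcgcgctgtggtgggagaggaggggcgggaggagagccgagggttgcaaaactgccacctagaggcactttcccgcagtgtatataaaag
Cxcr4, chr1:128592300-128592549, minus strand: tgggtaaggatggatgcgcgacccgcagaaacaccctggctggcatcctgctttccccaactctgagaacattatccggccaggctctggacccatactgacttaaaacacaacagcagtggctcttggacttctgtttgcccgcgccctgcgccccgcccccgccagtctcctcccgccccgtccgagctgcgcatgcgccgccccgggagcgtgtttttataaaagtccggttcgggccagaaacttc
In the Ackr3 sequence 2 cores on opposite strands lie side by side, ending 194 and 189 bases before the start site, and the Cxcr4 sequence holds none. G and C made up 54.0% of the bases with 7 CpG at Ackr3 and 61.2% with 19 CpG at Cxcr4, where promoters covered by an island had medians of 60.8% and 17. Neither holds the longer letters CTTTGAT or CTTTGAA.

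The Ackr3 island stood near the end of the whole table. In the authors' deposited table its FDR was 3.26e-36, and 3 islands, itself included, had a value as low. Among the 1192 nuclear islands with 41 to 199 peak-library reads it was 1 of 2 with at most 1 control-library read, where the median was 18. Of the 8891 genes with at least 20 peak-library reads, 20 had a pooled fold as high, Ackr3 included. When both counts were given their error, each island was set against a fold of 1 in a one-sided exact binomial test adjusted over all islands. The Ackr3 island passed (adjusted p = 0.00423, exact binomial), as did 0.43% of all islands, and the other 28 islands at receptor genes did not. A fold of 1 is a weaker reference than the genome-wide share, since islands were called for their peak-library reads. Against that share the same 41 and 1 reads did not pass in the gene test above (adjusted p = 0.0627, exact binomial). In the island test an unadjusted p below 0.05 was found for 7 of the 29 and for 24.1% of all islands, the same share. Both islands in the wider flanks of Ackr3 lacked control-library reads, as did 1112 of the 19531 islands (5.69%). Islands in the wider flanks of Ccr6 (13 against 0 reads) and Ccr7 (10 against 0) lacked them too. The nearest island outside the 10 kb of Ackr3, at 90228001 to 90229000 and 12277 bp past the gene, held 16 against 0 reads. With a floor of 3 control-library reads in place of 0 its fold would be 2.67, and the exact lower bound was 1.93. An island 49780 bp before the gene, at 90153001 to 90154200 within Iqca, held 17 against 0 reads. The same floor gave 2.84, and the exact lower bound was 2.07. The floor was not applied to the start-site island of Ackr3, which had 1 control-library read. Its fold of 20.5 therefore cannot be set beside 2.67 and 2.84, but its exact lower bound, 3.48, can be set beside theirs. With 50 kb on either side Ackr3 thus had 3 islands with 74 against 1 reads. Cxcr4 with 50 kb had 7 islands that held 146 against 64 reads and gave 1.14 (0.846 to 1.56). Its island with the highest fold lay 4199 bp past the gene, at 128582201 to 128584000, where 22 against 3 reads gave 3.67 (1.10 to 19.2).

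**Figure D2:**
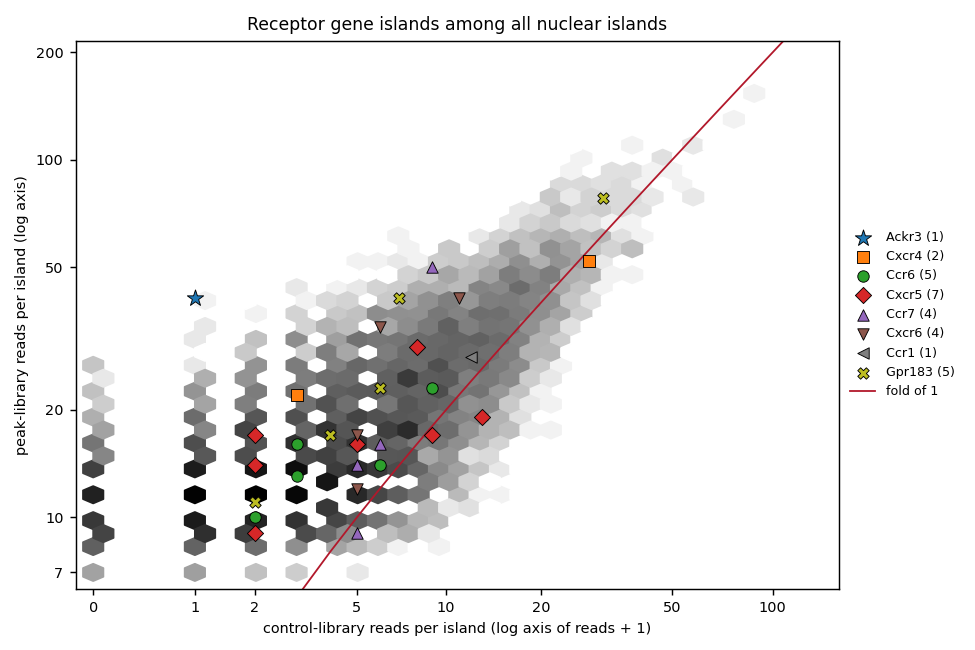
Peak-library against control-library reads of each island, both on log axes (control reads plus 1); grey shading is the number of nuclear islands below 200 peak-library reads, symbols are the 29 islands at receptor genes and the red line is a fold of 1. The Ackr3 island (41 against 1) sits above the body of islands with 1 control-library read, and the large Cxcr4 island (52 against 28) lies below the line.

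Ccr6, Cxcr5 and Ccr7 encode the receptors that lead LTi cells and lymphocytes to CCL20, to CXCL13 and to CCL19 and CCL21. The product of Ccr6 was also used to sort the cells. Ccr6 (chromosome 17, 8236041 to 8258519) had 5 islands with 76 against 23 reads. Of these, 4 lay around the first start site: at 9841 and 6041 bp before the gene with 13 against 3 and 14 against 6 reads, over the start with 23 against 9, and just inside the gene with 16 against 3. The island just inside, at 8237201 to 8238800, had the highest fold of the 5, 2.67 (0.765 to 14.3). The fifth lay 6882 bp past the gene, over the noncoding RNA gene Gm33799, with 10 against 2 reads. In the wider flank, 31441 bp before the gene, an island held 13 against 0 reads, with an exact lower bound of 1.53. The start-site island was thin in the peak library, with 7.19 reads per kb (5.18th percentile of all islands). Its 2.81 control-library reads per kb stood at the 43.5th percentile. Its upstream sequence is shown since, of the 8 listed for these genes, it is the one with the longer TCF letters.
Ccr6, chr17:8235793-8236042, plus strand: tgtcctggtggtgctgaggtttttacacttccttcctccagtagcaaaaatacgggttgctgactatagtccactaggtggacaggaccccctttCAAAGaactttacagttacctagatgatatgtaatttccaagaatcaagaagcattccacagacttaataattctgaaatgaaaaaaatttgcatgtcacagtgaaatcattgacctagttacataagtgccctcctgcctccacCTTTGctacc
Of its 2 cores in capitals, the one ending 150 bases before the start reads CTTTGAA on the minus strand, and the other lies 5 bases before the start. No island covered the second listed start of Ccr6, at 8242526.

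Cxcr5 (chromosome 9, 44511787 to 44526444) had 7 islands, the highest number of the 9 genes, with 122 against 41 reads. The reads were uneven along the gene. The islands inside it, from the lower to the higher coordinate, held 30 against 8, 17 against 2 and 19 against 13 reads. The middle one, at 44518801 to 44520200, had a fold of 4.26 (1.01 to 38.0), and the last, at 44526001 to 44527400 over the gene's higher end, had 0.732 (0.343 to 1.61). That last island had 9.29 control-library reads per kb, at the 95.4th percentile of all islands. On the lower side 2 islands, with 17 against 9 and 9 against 2 reads, lay within Bcl9l, which encodes a partner of beta-catenin, so they cannot be assigned to either gene. On the higher side 2 islands held 16 against 5 and 14 against 2 reads. Another, 10957 bp beyond the gene and so just outside the 10 kb, held 44 against 9 reads and a fold of 2.45 (1.18 to 5.70).

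Ccr7 (chromosome 11, 99144199 to 99155077) had 4 islands with 89 against 25 reads, and most of the excess lay outside the gene. The 3 islands inside it held 14 against 5, 9 against 5 and 16 against 6 reads, and each interval included 1. The island at 99130601 to 99134200 held 50 against 9 reads, a fold of 2.78 (1.35 to 6.44). It reaches the 10 kb by its last bases, ending 9999 bp from the gene. Without it, when at least 50% of an island had to lie inside, the fold at Ccr7 was 1.22 (0.667 to 2.34). A further island 40524 bp beyond the gene held 10 against 0 reads. The floor of 3 control-library reads gave 1.67-fold, and the exact lower bound was 1.12.

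**Figure D3:**
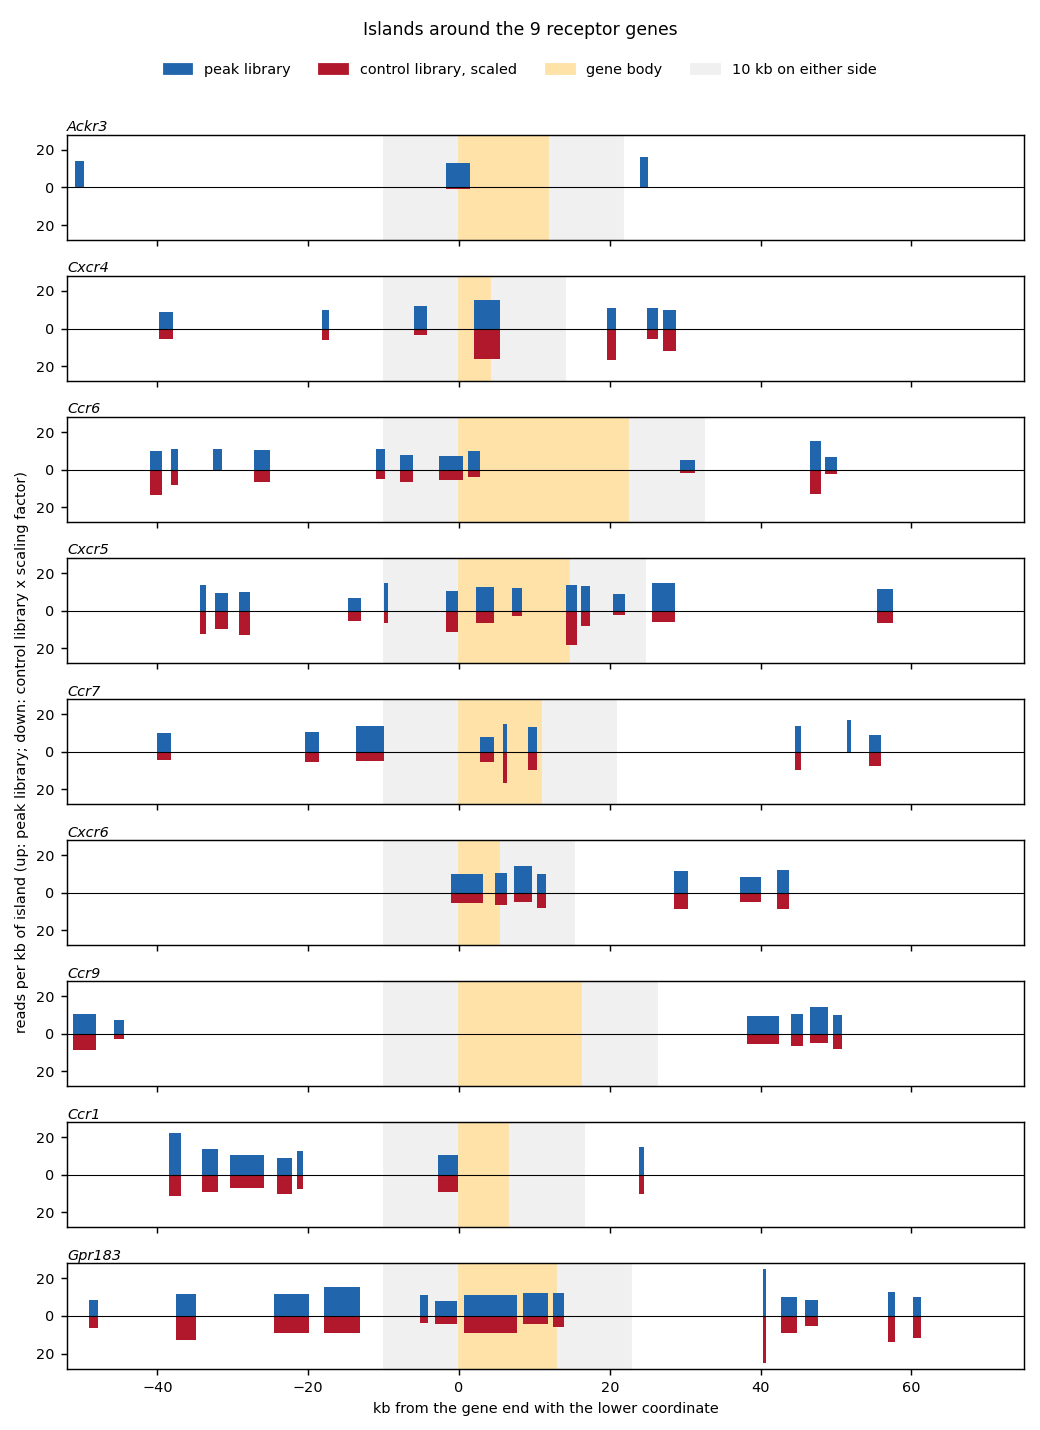
Reads per kb of island for each receptor gene, peak library upward and control library times the scaling factor downward, against the distance in kb from the gene end with the lower coordinate; the gene is yellow and the 10 kb on either side grey. Bars below the line are nearly missing around Ackr3, Gpr183 and Cxcr6 are tiled with islands, and Ccr9 has none in the shaded span.

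Ccr9, Cxcr6 and Ccr1 lie in the receptor gene cluster of chromosome 9. CCR9 draws cells to CCL25 of the small intestine, CXCR6 binds CXCL16, and CCR1 binds inflammatory chemokines such as CCL3 and CCL5. The 241 kb from 20 kb before Ccr9 to 20 kb above the higher coordinate of Ccr1 held 15 islands. With 382 against 124 reads their fold was 1.54 (1.26 to 1.90). Ccr9 (123767211 to 123783457) had no island in its 36.2 kb, the start site included, and the nearest lay 21944 bp past the gene, over the start of Cxcr6. A missing island shows only that none was called there, since reads outside islands are not in the table. Cxcr6 (123806477 to 123811754) had 4 islands that covered 37.2% of its 25.3 kb, with 104 against 27 reads. The widest, at 123805401 to 123809600 over the start site, held 41 against 11 reads and a fold of 1.87 (0.942 to 4.03). The next, over the gene's end, held 17 against 5. The island at 123813801 to 123816200, 2047 bp past the gene, held 34 against 6 reads, 2.84-fold (1.18 to 8.27), and the last held 12 against 5. Cxcr6 lies wholly within the gene body of Fyco1, so none of its 4 islands belongs to it alone. Ccr1 (123962126 to 123968692) had 1 island, at 123959401 to 123962000 and 126 bp past the gene, with 28 against 12 reads. Its start site had none. A group of 5 islands lay 20726 to 36926 bp past Ccr1, the largest with 47 against 15 reads. With 50 kb on either side the fold at Ccr1 was 1.44 (1.07 to 1.95).

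**Figure D4:**
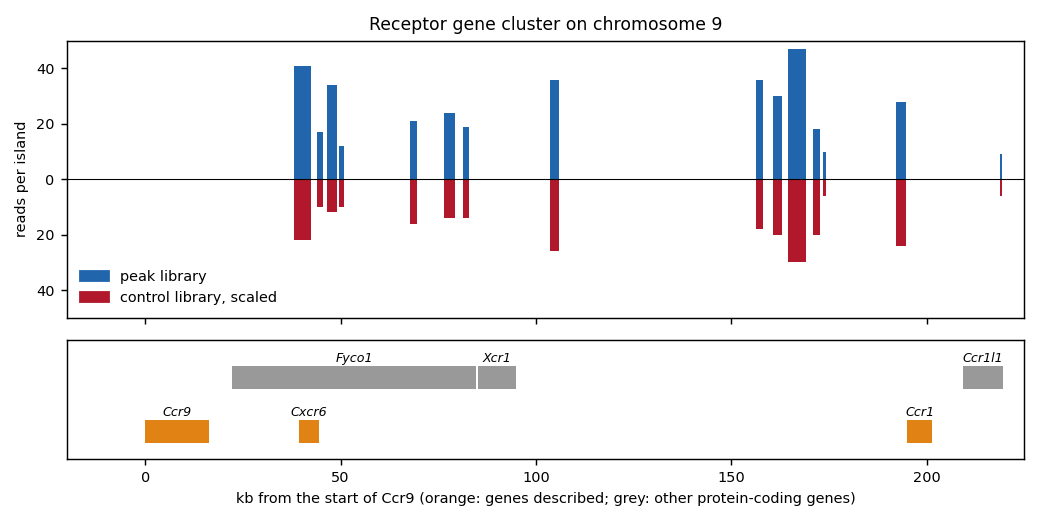
Reads per island from Ccr9 to Ccr1 on chromosome 9, peak library upward and scaled control library downward, against the distance in kb from the start of Ccr9, with the protein-coding genes below. Islands gather over Fyco1 with Cxcr6 and on the lower side of Ccr1, and none lies over Ccr9.

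Gpr183 (chromosome 14, 121952331 to 121965193), the oxysterol receptor gene, was the most densely covered of the 9. Its 5 islands covered 47.5% of its 32.9 kb, where the median of all protein-coding genes was 1.26% and the 90th percentile 12.1%. They held 170 against 50 reads, the highest number in both libraries, and all 5 passed an FDR of 0.05 in the authors' deposited table. The widest, at 121953001 to 121960000 inside the gene, held 78 against 31 reads and a fold of 1.26 (0.821 to 1.98). The island beside it, at 121960801 to 121964200, held 41 against 7 reads and a fold of 2.93 (1.30 to 7.75). The island over the start site held 17 against 4, and those past the gene 23 against 6 and 11 against 2. Gpr183 lies within Ubac2, which all 5 islands also overlap. The islands went on beyond the 10 kb, the nearest lying 13131 bp past the gene with 75 against 22 reads. Upstream of the start site the sequence is poor in G and C (32.0%) and holds 1 core, shown for its contrast with Cxcr4.
Gpr183, chr14:121965194-121965443, minus strand: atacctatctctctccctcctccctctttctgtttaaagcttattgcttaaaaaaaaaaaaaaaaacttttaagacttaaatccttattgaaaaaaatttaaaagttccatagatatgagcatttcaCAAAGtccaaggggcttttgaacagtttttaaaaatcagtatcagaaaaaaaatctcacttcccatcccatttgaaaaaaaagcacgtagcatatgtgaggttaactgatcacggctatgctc
That core ends 118 bases before the start site and does not extend to the longer letters.

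Across the 9 genes, the order by coverage was not the order by fold. Gpr183, Cxcr6 and Cxcr5 had the highest coverage, with 47.5%, 37.2% and 29.4% of the locus, then Cxcr4 with 21.6% and Ccr6 with 20.6%. Ccr7, Ackr3 and Ccr1 had 11.7%, 10.1% and 9.79%. Ackr3, with the highest fold, was thus next to last among the 8 genes with an island. Over its islands each gene had 7.76 (Ccr6) to 14.2 (Cxcr4) peak-library reads per kb, while control-library reads ran from 0.313 (Ackr3) to 5.96 (Cxcr4) per kb. The split by place was 5 islands over a start site, with a pooled fold of 1.64 (1.20 to 2.28), 10 elsewhere in a gene with 1.51 (1.18 to 1.96) and 14 outside with 1.90 (1.46 to 2.50), and these intervals overlapped. Start sites of Cxcr5 and Ccr7 were not used here, so their islands count as gene or outside. In the genome, islands over a start site had 1.41 (1.40 to 1.43) and other nuclear islands 1.79 (1.78 to 1.81), each with fewer than 200 peak-library reads. Of the 29 islands, 11 also overlapped another protein-coding gene (Bcl9l, Fyco1 or Ubac2). Without them the pooled fold was 1.66 (1.35 to 2.05), and without Ackr3 alone it was 1.59 (1.36 to 1.86).

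Upstream sequences of 8 start sites were matched for 7 of the 9 genes, and islands overlapped 5 of these windows (250 bases before to 50 after the start), against 38.2% of windows of protein-coding genes. The core CTTTG, searched on both strands in the 250 upstream bases, was in 7 of the 8, against 46.4% of all such sequences. It was in 40% of those whose window had an island, as 5 of the 8 did. G and C made up 32.0% (Gpr183) to 54.0% (Ackr3) of the 7 with the core. The median was 55.6% for all such sequences and 60.8% for those with an island. These shares were not adjusted for base content, and both listed starts of Ccr6 are among the 8. CTTTGAA was in 1 of 8, at Ccr6, against 4.05%, and CTTTGAT in none, against 2.82%. The letters of CTTTGAA and CTTTGAT contain the core, which was added after the values were seen. A match of letters is not a site of binding.

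The other genes of the system differed in how many had islands. Of 20 other chemokine and chemoattractant receptor genes 11 had an island, near the background of 54.7%, and 7 had one that passed an FDR of 0.05 in the authors' deposited table, as 40.3% of all protein-coding genes did. Pooled over their 23 islands, 417 against 139 reads gave 1.50 (1.24 to 1.83). Those with the highest folds were Ccr2, the monocyte CCL2 receptor gene, at 3.13 (1.08 to 12.4), Gpr55 at 2.84 (1.18 to 8.27) and the leukotriene receptor gene Ltb4r1 at 2.35 (1.17 to 5.22). Of 16 genes for ligands and their synthesis 15 were matched, and 5 had an island. Named after their values were seen, these were Ccl20 with 12 against 0 reads, Ccl25 with 9 against 9, Cxcl16 with 26 against 8, Ccl5 with 16 against 5, and Ch25h, which makes the precursor of the GPR183 ligand, with 12 against 1. The island counted for Ch25h overlapped only the outer 18 bp of the 10 kb beside the gene. Cxcl12, Cxcl13, Ccl19 and Ccl21a had none. Ccl20 encodes the ligand of CCR6. With the floor of 3 control-library reads its fold would be 2.00, and the exact lower bound was 1.39. Of 22 genes for receptor signalling and its arrest 21 had an island, and 18 had one that passed an FDR of 0.05 in the authors' deposited table, against 54.7% and 40.3% of all protein-coding genes. Their 77 islands had a pooled fold of 1.53 (1.39 to 1.69). Arrb1, which encodes a beta-arrestin, stood at 3.17 (1.56 to 7.29), Rgs3, a brake on G proteins, at 3.12 (1.53 to 7.17), and the receptor kinase gene Grk5 at 2.84 (1.38 to 6.56). No gene of these 3 lists passed the exact binomial test against the genome-wide share after adjustment over all genes, and 2 had an unadjusted p below 0.05 (Ccl25 and Coro1a, with 9 against 9 and 83 against 40 reads), as did 9.5% of all genes with an island.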

How the data were processed

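For the ChIC-seq libraries of 2 mouse LTi samples the submitters' processing notes name Bowtie2 2.4.2, SICER 2.0 and the mm10 build. The settings of the island calls (window, gap, duplicates) were not known here. The authors deposited whole read counts per island, unscaled, for a peak and a control library. The 2 count columns name no sample and were tied to neither genotype. The fold per island is a ratio that the authors deposited, and its scaling factor, 2.00, was recovered from islands with control reads. The p-value and FDR per island were deposited by the authors and take the control count as known. Island positions are counted from 1.

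Gene coordinates and upstream sequences came from RefSeq on GRCm38.p6, the same build as mm10. Islands were joined to genes with Python 3.11.15, pandas 2.3.3 and scipy 1.17.1, at an overlap of at least 1 bp with the gene body plus 10 kb. The member list named Gpr183 in 2 of its 10 places and it was counted once. Pooled folds have exact conditional binomial (Clopper-Pearson) 95% intervals, reads per kb exact Poisson ones. Islands with 200 or more peak-library reads were left out of pooled values and gene tests. Gene and island tests were exact binomial tests adjusted by Benjamini-Hochberg over all genes or islands. The island test, against a fold of 1, and the fold intervals were tried on simulated counts, with no selection for peak-library reads. The gene test was not tried on simulated data. PCR duplicates may be among the reads, so intervals cover counting error only. The genes named are all 9 members, neighbours that share their islands and, per comparison list, up to 3 genes with the highest fold and at least 20 peak-library reads. The ligand genes, Coro1a and the marker genes were named outside this rule, after their values were seen. 1 further gene of the receptor list is not reported here. The members and lists were chosen with earlier results of these data known. Alternatives varied the locus, overlap, FDR, read minimum, scaling and shared islands. Genotypes were not tested against each other, each having 1 library.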

Additional observations from a re-analysis of the deposited data

How the results depend on the processing

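No result changed direction past its interval under the alternatives. The 29 islands at the receptor genes became 15 with gene bodies alone, 73 with 50 kb on either side, 19 at an FDR of 0.05 or less and 12 with at least 20 peak-library reads. The pooled fold of 1.68 became 2.24 at an FDR of 0.05 or less, 1.31 with the table's totals set equal and 3.35 without scaling. The 6 genes with an interval above 1 became 3 with gene bodies alone and 1, Ackr3, with equal totals. The 7 genes with an island passing an FDR of 0.05 in the authors' deposited table became 1, Ackr3, under the island test. That exact binomial test of both counts took a fold of 1 as its reference and was added after the data were seen. The other counts stayed within 1.5 times their value. Of 60 folds of single genes under the alternatives, 52 lay inside the interval first given and 8 outside it. The fold at Ackr3 ran from 16.0 to 41.0, with its interval above 1 in all 9 settings that gave one, and rests on 1 control-library read in each. The fold at Cxcr4 ran from 0.930 to 3.67 and that at Ccr1 from 0.913 to 2.33, on both sides of 1. Ccr1 had no value with gene bodies alone or at an FDR of 0.05 or less, and Cxcr6 and Gpr183 had none without islands shared with another gene. Counting error limits single islands: 24 of the 29 held fewer than 10 control-library reads. No paired analysis was possible because each group had 1 library.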
